A study of Mus musculus with 16 samples.

Results

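The 44 interferon-stimulated genes described here are genes that type I interferon is known to induce. They were chosen from general knowledge of that response once it was known that some of them were lower at 72 than at 48 hr in dispersed myoblasts. They are 44 of the 34836 gene names on the array, and 39 of them passed the filter on low signal, a median log2 signal of at least 5, among 20317 genes that did. The 5 that did not pass were Ddx60, Oas2, Oas3, Ifit1 and Mx1, whose values are given without a test.

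The data are one-color Agilent mouse arrays of satellite cell-derived myoblasts from male C57Bl/6J mice of 11 to 13 weeks per the labels, in 4 groups of 4 arrays. Dispersed myoblasts had been cultured away from their fibers for 48 or 72 hr, with 1 mouse for each replicate. Myofiber-associated myoblasts had stayed on cultured fibers for 48 or 72 hr and were then released with trypsin (0.5% for 10 min per the labels), with 2 mice for each replicate. The paper gives a narrower range of ages and a lower concentration of trypsin than the labels. Replicate 4 of the myofiber-associated 48-hr group pooled 2 preparations, and every RNA sample had an RNA integrity number of at least 7.5. Each culture had a slide to itself, with 8 arrays, and therefore effects of culture and slide cannot be told apart. Time likewise went with position, since columns 1 and 2 of each slide carried 72 hr and columns 3 and 4 carried 48 hr. Of the probes, 54.0% to 63.5% were above background on an array, and with 4 arrays in a group small changes cannot be resolved.

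Interferons are cytokines that infected or stressed cells release, and a cell that binds them through its surface receptors sends STAT proteins to the nucleus. Type I interferons act mainly through ISGF3, a complex with STAT2 and IRF9 that binds the interferon-stimulated response element (ISRE), while the response to interferon gamma runs mainly through the gamma-activated site (GAS). The induced genes sense foreign RNA, block virus entry and replication, attack vacuoles that hold pathogens and raise antigen presentation, and in skeletal muscle a strong interferon signature is known from dermatomyositis.

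Most of the interferon-stimulated genes were called lower at 72 than at 48 hr in dispersed myoblasts, and a smaller number in myofiber-associated myoblasts. Gene by gene over the whole array, a limma adjusted p under 0.01 was used as the call. In dispersed myoblasts 33 of 39 members were called lower at 72 hr, where 6.35% of all 20317 genes were called lower and 7.37% higher; these values chose the members, so the count is a description and nothing is read from it. The median log2 change of the 39 was -1.73, all 42 members that were above background on any array lay below 0, and the changes ran from -3.69 for Ifi44 to -0.13 for Ifit2. The median over all genes tested was 0.02.

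The choice rested on the dispersed arrays, although results of the myofiber-associated arrays were known by then as well. On the latter 9 of 39 members were called lower at 72 hr, which is 23.1%, beside 1.75% of all genes called lower and 3.74% called higher. Because those results were known, this count and the adjusted p-values of members in this culture are a description as well. The median of the 39 was -1.11 against 0.06 over all genes, and 35 of those 42 members lay below 0, from -3.15 for Irgm2 to 0.50 for Iigp1. The 9 were Oas1a, Usp18, Ifi27l2a, Gbp3, Gbp2, Ifih1, Lgals3bp, Irgm1 and Irf9. A further 6 had an adjusted p between 0.0101 and 0.0113: Ifi44, Parp9, Parp14, Ifit3, Igtp and Isg15. The count of 9 depends on the fit and on single arrays. It was 1 with slide row as a block and also 1 without the filter on low signal, and 26 in a fit of all 16 arrays. Leaving out arrays, it came to 0 without replicate 1 of either time, 1 without 72-hr replicate 3, 2 without 72-hr replicate 2 and 4 without 48-hr replicate 3, and each of the 9 genes was past the threshold in 1 to 4 of the 8 fits that left out 1 array. The median lay between -1.19 and -0.97 in those fits.

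**Figure D1:**
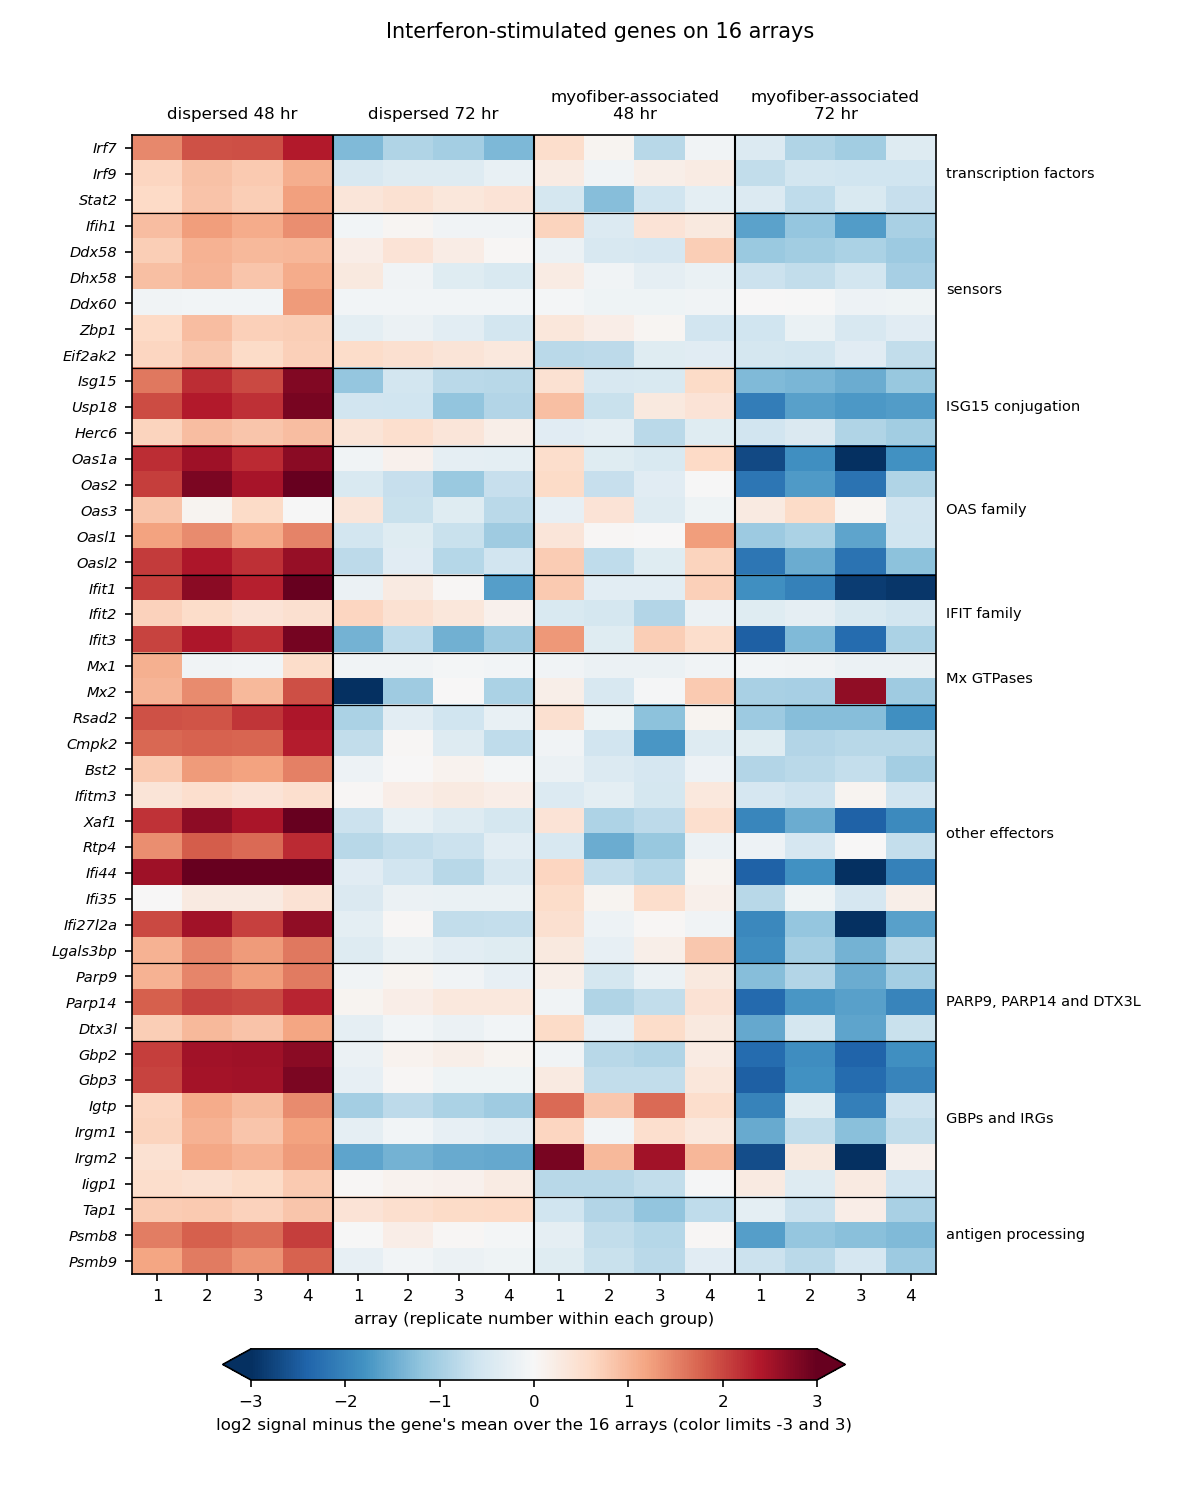
Log2 signal of each of the 44 genes on each of the 16 arrays, as the difference from that gene's mean over the arrays (color, log2 units), with genes grouped by role. The dispersed 48-hr arrays are the reddest block and the myofiber-associated 72-hr arrays the bluest, with the other groups between them.

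The time change of the cultures was compared through the comparative ratio (CR), the log2 change in dispersed minus that in myofiber-associated myoblasts. For the CR 4 of 39 members were called lower, beside 2.37% of all genes called lower and 1.08% called higher, with a median of -0.66 against -0.07 over all genes. The 4 were Rtp4, Irf7, Cmpk2 and Psmb9, and for 35 of the 42 members the value was below 0. The count of 4 became 3 to 7 without 1 array and 2 to 18 under the other alternatives. The CR contains the change that chose the members, and these counts are a description.

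The members' levels also differed between the cultures. At 48 hr 32 of 39 members were called lower in myofiber-associated than in dispersed myoblasts, beside 27.0% of all genes called lower and 16.1% called higher, with a median of -1.51 against -0.12. At 72 hr 20 of 39 were called lower, beside 15.6% of all genes called lower and 11.5% called higher, with a median of -0.84 against -0.02. The dispersed arrays that chose the members are a side of both comparisons, so these counts too are a description. No member was called higher in any of the 5 comparisons with limma; at an unadjusted p under 0.05 the count of higher members was 0 in the first 4 and 1 in the comparison of cultures at 72 hr. Counts at an unadjusted p under 0.05, here and below, have no share of all genes beside them, and nothing is read from them. In bulk samples fewer cells of a type and less RNA per cell cannot be told apart.

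As a summary by array, the median of the members' log2 signal, each gene taken from its own mean, was 1.03, 1.42, 1.16 and 1.53 in dispersed myoblasts at 48 hr and -0.26, -0.08, -0.22 and -0.27 at 72 hr. In myofiber-associated myoblasts it was 0.26, -0.40, -0.37 and 0.20 at 48 hr and -1.10, -0.88, -1.26 and -0.96 at 72 hr. The dispersed 48-hr arrays stood above all others and the myofiber-associated 72-hr arrays below all others, while the other groups overlapped. Members above background on all 4 arrays numbered 41 in dispersed myoblasts at 48 hr, 38 at 72 hr, and 40 and 37 in myofiber-associated myoblasts. Ddx60, a helicase that aids RIG-I, and Mx1 were above background on no array.

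**Figure D2:**
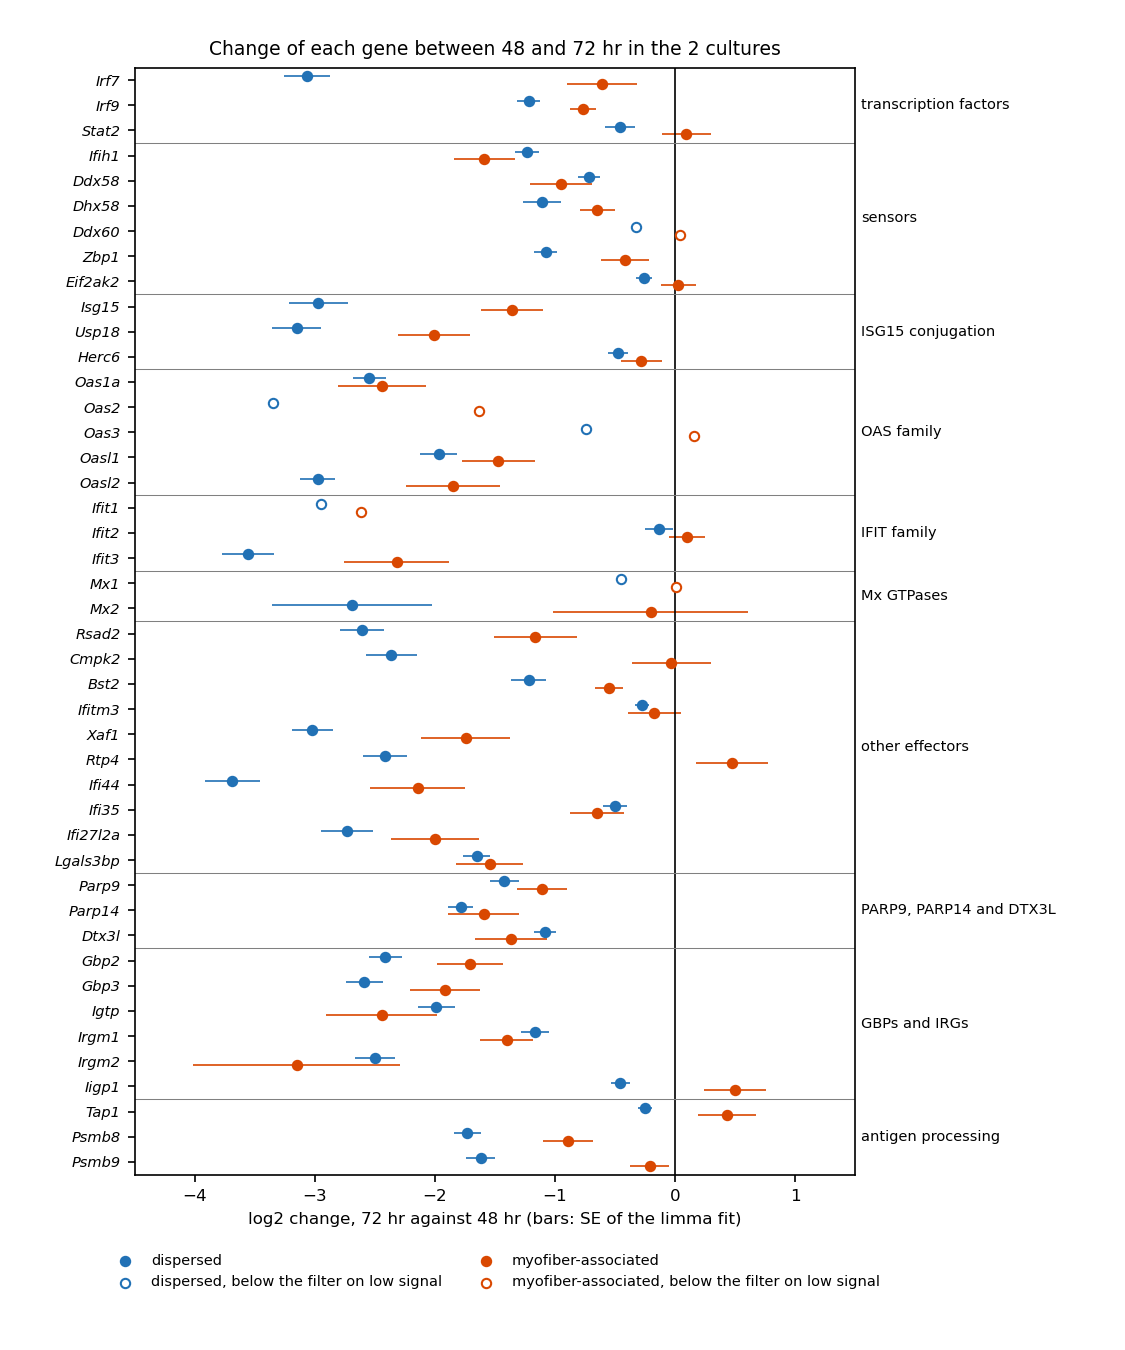
Log2 change from 48 to 72 hr of each gene in dispersed (blue) and myofiber-associated myoblasts (orange), with bars for the SE of the limma fit over 8 arrays and open points for the 5 genes under the filter on low signal. All blue points lie left of 0, and the orange points run from -3.15 for Irgm2 to 0.50 for Iigp1.

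Among the transcription factors, Irf7 amplifies the response by driving interferon genes themselves, and Irf9 is the DNA-binding part of ISGF3. Irf7 read 7.50, 7.96, 7.99 and 8.42 on the dispersed 48-hr arrays and 4.72, 5.15, 5.03 and 4.72 at 72 hr, and 6.59, 6.14, 5.22 and 5.95 on the myofiber-associated 48-hr arrays and 5.64, 5.15, 5.02 and 5.66 at 72 hr. All dispersed 48-hr arrays lay above all dispersed 72-hr arrays, whereas the myofiber-associated times overlapped. The change of Irf7 was -3.07 in dispersed and -0.61 (SE 0.29, limma, adjusted p = 0.146) in myofiber-associated myoblasts, and its CR was -2.46.

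Irf9 read 10.62, 10.85, 10.76 and 11.07 on the dispersed 48-hr arrays and 9.50, 9.59, 9.58 and 9.75 at 72 hr, and 10.23, 9.87, 10.16 and 10.24 on the myofiber-associated 48-hr arrays and 9.24, 9.43, 9.37 and 9.39 at 72 hr. Irf9 was higher on each 48-hr array than on any 72-hr array, in both cultures. It had a log2 difference of -1.22 in dispersed myoblasts and fell in myofiber-associated myoblasts, with a log2 difference of -0.77 (SE 0.11, limma, adjusted p = 0.00374). Stat2, the partner of Irf9 in ISGF3, had log2 differences of -0.46 and 0.10. Of the 3 factors, 2 were called lower in dispersed myoblasts and only Irf9 in myofiber-associated ones. Here and for the other roles, the shares of all genes called lower were 6.35% and 1.75%.

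The sensors bind foreign nucleic acids in the cell, and Ifih1, which encodes MDA5, recognizes long double-stranded RNA. Ifih1 read 9.22, 9.53, 9.40 and 9.68 on the dispersed 48-hr arrays and 8.20, 8.34, 8.18 and 8.18 at 72 hr, and 8.95, 7.88, 8.69 and 8.58 on the myofiber-associated 48-hr arrays and 6.68, 7.13, 6.62 and 7.32 at 72 hr. The times did not overlap in either culture, and the myofiber-associated 72-hr arrays were the lowest. Ifih1 had a log2 difference of -1.23 in dispersed myoblasts. It fell in myofiber-associated myoblasts by a log2 difference of -1.59 (SE 0.25, limma, adjusted p = 0.00594). The latter difference was -1.03 with the mean of all its probes. In the same order, the changes were -0.72 and -0.95 for Ddx58 (RIG-I, a sensor of viral RNA ends), -1.11 and -0.65 for Dhx58 (LGP2, a helper of both), and -1.08 and -0.42 for Zbp1, which binds Z-form nucleic acids. Those of Eif2ak2 (PKR, a kinase that stops translation) were -0.26 and 0.03. Of the 5 sensors tested, 4 were called lower in dispersed and 1 in myofiber-associated cells. The promoter of Ifih1 is shown because its ISRE lies downstream of the start site, from 33 to 42 bases after it, in a stretch from 23 to 50 (chr2:62646206-62646233, minus strand). Here and in the stretches shown with the other roles, RefSeq promoters on GRCm38.p6 are written 5′ to 3′ along the strand of the gene, and capitals mark the ISRE, searched as GAAANNGAAA on both strands, so that a match on the other strand shows as its reverse complement.

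Ifih1: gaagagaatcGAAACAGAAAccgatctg

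ISG15 is a ubiquitin-like protein that is linked to other proteins during the response. Isg15 read 11.70, 12.32, 12.10 and 12.90 on the dispersed 48-hr arrays and 8.96, 9.57, 9.31 and 9.29 at 72 hr, and 10.58, 9.63, 9.66 and 10.69 on the myofiber-associated 48-hr arrays and 8.78, 8.73, 8.64 and 8.97 at 72 hr. The times of Isg15 did not overlap in either culture, and the dispersed 48-hr arrays were the highest. It had a log2 difference of -2.97 in dispersed and -1.36 (SE 0.26, limma, adjusted p = 0.0113) in myofiber-associated myoblasts, and its second probe gave -3.10 and -1.58. Usp18 read 8.76, 9.17, 8.99 and 9.64 on the dispersed 48-hr arrays and 6.22, 6.19, 5.61 and 5.92 at 72 hr, and 7.71, 6.14, 7.09 and 7.21 on the myofiber-associated 48-hr arrays and 4.74, 5.18, 5.09 and 5.13 at 72 hr. Usp18, which removes ISG15 from proteins and damps interferon receptor signaling, also had times that did not overlap. It had a log2 difference of -3.15 in dispersed myoblasts. In myofiber-associated myoblasts it fell, with a log2 difference of -2.01 (SE 0.30, limma, adjusted p = 0.00486). The latter difference was -0.98 with normexp background correction. Herc6, the main mouse ISG15 ligase, had log2 differences of -0.48 and -0.28. All 3 genes of this role were called lower in dispersed myoblasts, and only Usp18 was in myofiber-associated myoblasts. The stretch of the Isg15 promoter from 88 to 47 bases before the start (chr4:156200865-156200906, minus strand) is shown because it holds 3 ISRE matches in a row that share letters.

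Isg15: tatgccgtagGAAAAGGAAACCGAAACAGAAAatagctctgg

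The oligoadenylate synthetases make short adenylate chains on sensing double-stranded RNA, and these activate RNase L; the probes of all 5 members lie on chromosome 5 (mm9). Oas1a read 10.82, 11.15, 10.85 and 11.31 on the dispersed 48-hr arrays and 8.52, 8.74, 8.34 and 8.32 at 72 hr, and 9.14, 8.24, 8.16 and 9.20 on the myofiber-associated 48-hr arrays and 5.91, 6.77, 5.52 and 6.79 at 72 hr. Within each culture all 72-hr arrays lay below all 48-hr arrays, and the dispersed 72-hr and myofiber-associated 48-hr arrays overlapped. The log2 change of Oas1a was -2.55 in dispersed myoblasts, and it fell in myofiber-associated myoblasts, with a log2 difference of -2.44 (SE 0.37, limma, adjusted p = 0.00498). Oas2 read 7.47, 8.22, 7.87 and 8.45 on the dispersed 48-hr arrays and 4.93, 4.70, 4.29 and 4.70 at 72 hr, and 5.98, 4.70, 5.06 and 5.39 on the myofiber-associated 48-hr arrays and 3.24, 3.70, 3.18 and 4.49 at 72 hr. Oas2 had the same order of groups, and its change of -3.35 in dispersed myoblasts has no test. In myofiber-associated myoblasts no size is given for Oas2, because only 2 of 4 72-hr arrays were above background. Oasl1, which holds back translation of Irf7, and Oasl2, an active relative, had log2 differences of -1.97 and -2.98 in dispersed and of -1.47 and -1.85 in myofiber-associated myoblasts. Oas3 was above background on 1 of 4 dispersed 48-hr and 2 of 4 myofiber-associated 72-hr arrays and on no other. All 3 genes tested in this role were called lower in dispersed and 1 in myofiber-associated cells. The Oas1a promoter is shown from 30 bases before to 6 after the start (chr5:120907520-120907555, minus strand), where its ISRE matches overlap just before the start.

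Oas1a: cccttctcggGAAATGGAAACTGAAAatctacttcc

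IFIT proteins bind viral RNA that lacks the marks of host messages, and the probes of the 3 members lie together on chromosome 19 (mm9). Ifit3 read 8.89, 9.29, 9.08 and 9.75 on the dispersed 48-hr arrays and 5.46, 6.10, 5.42 and 5.80 at 72 hr, and 8.18, 6.50, 7.61 and 7.40 on the myofiber-associated 48-hr arrays and 4.41, 5.54, 4.55 and 5.91 at 72 hr. Ifit1 read 6.84, 7.45, 7.08 and 7.92 on the dispersed 48-hr arrays and 4.59, 5.03, 4.78 and 3.10 at 72 hr, and 5.54, 4.44, 4.43 and 5.47 on the myofiber-associated 48-hr arrays and 2.93, 2.74, 1.90 and 1.84 at 72 hr. For both genes the dispersed 48-hr arrays were the highest and no 72-hr array reached a 48-hr array of its culture. Ifit3 had a log2 difference of -3.56 in dispersed and -2.32 (SE 0.44, limma, adjusted p = 0.0107) in myofiber-associated myoblasts. Ifit1 had a log2 difference of -2.95 in dispersed myoblasts; in myofiber-associated myoblasts it was above background on all 4 48-hr arrays and on no 72-hr array, so it was at least 2.47-fold higher at 48 hr. Ifit2 read 8.69, 8.55, 8.40 and 8.48 on the dispersed 48-hr arrays and 8.65, 8.47, 8.35 and 8.12 at 72 hr, and 7.54, 7.47, 7.11 and 7.82 on the myofiber-associated 48-hr arrays and 7.63, 7.74, 7.55 and 7.44 at 72 hr. Unlike these, Ifit2 had times that overlapped in both cultures, with changes of -0.13 and 0.10. Of the 2 IFIT genes tested, Ifit3 was called lower in dispersed myoblasts and neither was in myofiber-associated myoblasts with limma, where Ifit3 alone had an unadjusted p under 0.05. The promoters of Ifit3 (chr19:34583363-34583426, plus strand) and Ifit1 (chr19:34640775-34640823, plus strand) are shown for their paired ISRE matches. They lie between 166 and 103 bases before the start of Ifit3 and between 114 and 66 bases before that of Ifit1.

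Ifit3: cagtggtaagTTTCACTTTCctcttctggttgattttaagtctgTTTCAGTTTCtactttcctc
Ifit1: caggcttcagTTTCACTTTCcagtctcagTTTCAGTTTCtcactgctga

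Mx proteins are GTPases of the dynamin family that trap viral particles. Mx2 read 6.05, 6.43, 6.00 and 6.96 on the dispersed 48-hr arrays and 1.58, 3.97, 5.03 and 4.09 at 72 hr, and 5.21, 4.55, 4.99 and 5.82 on the myofiber-associated 48-hr arrays and 4.06, 4.03, 7.70 and 3.96 at 72 hr. The dispersed 48-hr arrays lay above the dispersed 72-hr arrays, only 1 of which was above background. Among the myofiber-associated 72-hr arrays, replicate 3 stood far above the other 3, which lay close together. Of the 1 Mx gene tested, limma called 0 lower in dispersed and 0 in myofiber-associated myoblasts, where 1 and 0 were lower at an unadjusted p under 0.05. No size is given in dispersed myoblasts because 3 of the 4 72-hr arrays lay at background. In myofiber-associated myoblasts Mx2 had a log2 difference of -0.20 (SE 0.81, limma, adjusted p = 0.867), and its sign was positive with normexp background correction.

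**Figure D3:**
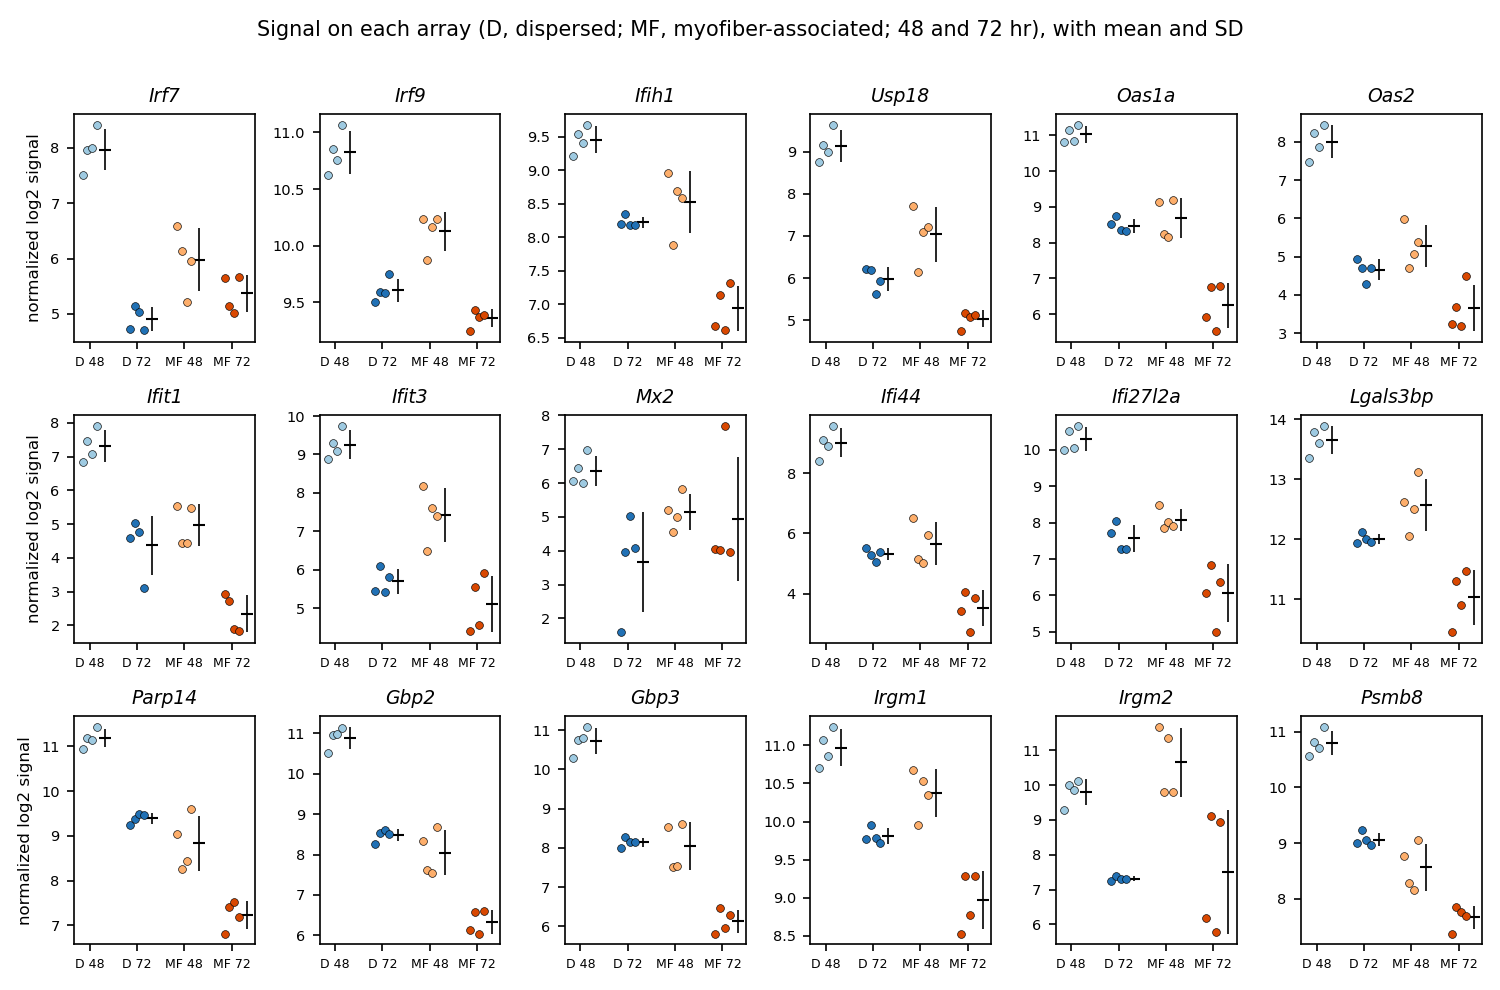
Normalized log2 signal (vertical axis) of 18 genes on each array of the 4 groups, with the mean and SD of the 4 arrays as a bar beside the points. In most panels the dispersed 48-hr arrays are the highest; Mx2 has 1 myofiber-associated 72-hr array at 7.70, and Irgm2 has its highest values, up to 11.68, in myofiber-associated myoblasts at 48 hr.

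Among the other effectors, Ifi44 had the largest change of all members in dispersed myoblasts. Ifi44 read 8.42, 9.12, 8.91 and 9.58 on the dispersed 48-hr arrays and 5.53, 5.29, 5.05 and 5.40 at 72 hr, and 6.52, 5.15, 5.02 and 5.95 on the myofiber-associated 48-hr arrays and 3.44, 4.06, 2.72 and 3.85 at 72 hr. The dispersed 48-hr arrays stood apart from the rest, and only 1 of the 4 myofiber-associated 72-hr arrays was above background. The change was -3.69 in dispersed myoblasts. It was not called in myofiber-associated myoblasts (limma, adjusted p = 0.0101), where no size is given because most 72-hr arrays lay at background. Ifi27l2a read 9.99, 10.52, 10.06 and 10.67 on the dispersed 48-hr arrays and 7.70, 8.04, 7.27 and 7.29 at 72 hr, and 8.50, 7.85, 8.03 and 7.91 on the myofiber-associated 48-hr arrays and 6.07, 6.84, 4.98 and 6.38 at 72 hr. The signal of Ifi27l2a, a small hydrophobic membrane protein, was lower on all 72-hr arrays than on the 48-hr arrays of the same culture. It had a log2 difference of -2.73 in dispersed myoblasts. In myofiber-associated myoblasts it fell by a log2 difference of -2.002 (SE 0.36, limma, adjusted p = 0.00941). The latter difference was -1.27 with normexp background correction.

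Lgals3bp read 13.35, 13.79, 13.60 and 13.89 on the dispersed 48-hr arrays and 11.93, 12.13, 12.00 and 11.95 at 72 hr, and 12.62, 12.06, 12.50 and 13.12 on the myofiber-associated 48-hr arrays and 10.45, 11.30, 10.90 and 11.47 at 72 hr. Lgals3bp, a secreted glycoprotein that binds galectins, had times that did not overlap in either culture. It had a log2 difference of -1.65 in dispersed myoblasts and fell in myofiber-associated myoblasts by a log2 difference of -1.55 (SE 0.28, limma, adjusted p = 0.00897).

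Rtp4 read 11.50, 11.92, 11.80 and 12.33 on the dispersed 48-hr arrays and 9.26, 9.38, 9.47 and 9.78 at 72 hr, and 9.62, 8.62, 8.96 and 9.93 on the myofiber-associated 48-hr arrays and 9.95, 9.59, 10.11 and 9.38 at 72 hr. Cmpk2 read 7.31, 7.35, 7.32 and 7.94 on the dispersed 48-hr arrays and 4.84, 5.63, 5.19 and 4.81 at 72 hr, and 5.48, 5.01, 3.85 and 5.21 on the myofiber-associated 48-hr arrays and 5.21, 4.69, 4.76 and 4.75 at 72 hr. In these genes the dispersed times were far apart and the myofiber-associated times overlapped. Rtp4, a chaperone of membrane receptors, had log2 differences of -2.42 and 0.48 and had a CR of -2.90. Cmpk2, a mitochondrial nucleotide kinase encoded beside Rsad2, had log2 differences of -2.36 and -0.03 and had a CR of -2.33. Rsad2 (viperin), which makes a nucleotide that ends viral RNA chains, had a log2 difference of -2.61 in dispersed and -1.16 in myofiber-associated cells. For Xaf1, an antagonist of a caspase inhibitor, the changes were -3.02 and -1.74, and for Bst2 (tetherin, which holds budding virions at the membrane) -1.22 and -0.55. Those of Ifi35, a leucine zipper protein that binds Nmi, were -0.50 and -0.65, and those of Ifitm3, which blocks fusion of entering viruses, -0.27 and -0.17. Of the 10 genes of this role, 9 were called lower in dispersed and 2 in myofiber-associated myoblasts.

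Parp14, Parp9 and Dtx3l act in ADP-ribosylation and, for the Parp9-Dtx3l complex, ubiquitination; their probes lie on chromosome 16 (mm9). Parp14 read 10.95, 11.18, 11.14 and 11.44 on the dispersed 48-hr arrays and 9.24, 9.37, 9.48 and 9.48 at 72 hr, and 9.04, 8.26, 8.43 and 9.59 on the myofiber-associated 48-hr arrays and 6.82, 7.42, 7.52 and 7.19 at 72 hr. The order of groups was the same for each array, with dispersed 48-hr arrays highest and myofiber-associated 72-hr arrays lowest, apart from the overlap between dispersed 72 hr and myofiber-associated 48 hr. Parp14 had a log2 difference of -1.79 in dispersed and -1.59 (SE 0.30, limma, adjusted p = 0.0105) in myofiber-associated myoblasts. Parp9 had log2 differences of -1.42 and -1.11 and Dtx3l of -1.08 and -1.37. All 3 were called lower in dispersed myoblasts. In myofiber-associated myoblasts limma called 0 of them lower, though all 3 had an unadjusted p under 0.05.

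Guanylate-binding proteins and immunity-related GTPases gather on vacuoles that hold pathogens, and they are known as targets of interferon gamma as well as of type I interferon. Gbp3 read 10.29, 10.76, 10.79 and 11.09 on the dispersed 48-hr arrays and 8.01, 8.29, 8.14 and 8.14 at 72 hr, and 8.52, 7.51, 7.53 and 8.61 on the myofiber-associated 48-hr arrays and 5.81, 6.45, 5.95 and 6.29 at 72 hr. Gbp2 read 10.51, 10.95, 10.97 and 11.15 on the dispersed 48-hr arrays and 8.26, 8.55, 8.62 and 8.51 at 72 hr, and 8.34, 7.61, 7.54 and 8.69 on the myofiber-associated 48-hr arrays and 6.13, 6.58, 6.04 and 6.60 at 72 hr. Both genes, whose probes lie on chromosome 3 (mm9), had their highest values on the dispersed 48-hr and their lowest on the myofiber-associated 72-hr arrays, and no 72-hr array reached a 48-hr array of its culture. Gbp3 had a log2 difference of -2.59 in dispersed myoblasts and fell in myofiber-associated myoblasts, with a log2 difference of -1.92 (SE 0.29, limma, adjusted p = 0.00527). Gbp2 had a log2 difference of -2.41 and fell, with a log2 difference of -1.71 (SE 0.28, limma, adjusted p = 0.00642).

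Irgm1 read 10.70, 11.07, 10.86 and 11.24 on the dispersed 48-hr arrays and 9.77, 9.96, 9.79 and 9.72 at 72 hr, and 10.68, 9.95, 10.53 and 10.35 on the myofiber-associated 48-hr arrays and 8.53, 9.29, 8.78 and 9.29 at 72 hr. Irgm1, a regulatory GTPase that keeps the effector GTPases off the cell's own membranes, had times that did not overlap in either culture. It had a log2 difference of -1.16 and fell in myofiber-associated myoblasts, with a log2 difference of -1.40 (SE 0.22, limma, adjusted p = 0.00564). Irgm2 read 9.28, 9.99, 9.86 and 10.11 on the dispersed 48-hr arrays and 7.23, 7.40, 7.30 and 7.30 at 72 hr, and 11.68, 9.81, 11.35 and 9.81 on the myofiber-associated 48-hr arrays and 6.17, 9.12, 5.79 and 8.95 at 72 hr. Irgm2 differed from most members in its levels, which were highest on myofiber-associated 48-hr replicates 1 and 3 and lowest on 72-hr replicates 1 and 3 of the same culture. Those replicates share slide columns, 3 at 48 hr and 1 at 72 hr, while replicates 2 and 4 sat in columns 4 and 2. Dispersed replicates 1 and 3 sat in the same columns of their slide. There Irgm2 read 9.28 and 9.86 at 48 hr, against 9.99 and 10.11 on replicates 2 and 4. Irgm2 had a log2 difference of -2.50 in dispersed and -3.15 (SE 0.86, limma, adjusted p = 0.0357) in myofiber-associated myoblasts.

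Igtp read 9.91, 10.37, 10.21 and 10.68 on the dispersed 48-hr arrays and 8.23, 8.48, 8.30 and 8.19 at 72 hr, and 10.96, 10.05, 10.95 and 9.79 on the myofiber-associated 48-hr arrays and 7.26, 8.90, 7.20 and 8.63 at 72 hr. Igtp (Irgm3), another regulatory GTPase, showed the same split of replicates in myofiber-associated myoblasts. Its change was -1.99 in dispersed and -2.44 (SE 0.46, limma, adjusted p = 0.011) in myofiber-associated myoblasts. Iigp1, an effector GTPase, had log2 differences of -0.46 and 0.50 with the brighter of its probes. The other probe was lower at 72 hr in both cultures and lay near background there, so the value of Iigp1 depends on the probe. All 6 genes of this role were called lower in dispersed and 3 in myofiber-associated cells. The promoters of Gbp3, Gbp2, Irgm1 and Irgm2 are shown as examples, all with an ISRE within 80 bases before the start, as Igtp has too. Gbp3 (chr3:142559989-142560024, plus strand) is given from 55 to 20 bases before it, Gbp2 (chr3:142620594-142620623, plus strand) from 69 to 40, Irgm1 (chr11:48871425-48871460, minus strand) from 40 to 5 and Irgm2 (chr11:58214903-58214932, plus strand) from 74 to 45.

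Gbp3: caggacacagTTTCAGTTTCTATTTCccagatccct
Gbp2: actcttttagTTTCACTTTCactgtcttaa
Irgm1: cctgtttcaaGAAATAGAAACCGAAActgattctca
Irgm2: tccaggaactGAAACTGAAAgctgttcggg

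In antigen processing, Psmb8 and Psmb9 encode subunits of the immunoproteasome and Tap1 a part of the peptide transporter. Psmb8 read 10.56, 10.81, 10.71 and 11.09 on the dispersed 48-hr arrays and 9.01, 9.23, 9.05 and 8.96 at 72 hr, and 8.77, 8.28, 8.16 and 9.05 on the myofiber-associated 48-hr arrays and 7.38, 7.85, 7.76 and 7.69 at 72 hr. Psmb9 read 9.77, 10.14, 9.92 and 10.36 on the dispersed 48-hr arrays and 8.34, 8.51, 8.41 and 8.45 at 72 hr, and 8.22, 7.92, 7.77 and 8.24 on the myofiber-associated 48-hr arrays and 7.94, 7.77, 8.09 and 7.50 at 72 hr. Both were highest on the dispersed 48-hr arrays. The myofiber-associated times were apart for Psmb8 and overlapped for Psmb9. Psmb8 had a log2 difference of -1.73 in dispersed and -0.89 (SE 0.21, limma, adjusted p = 0.0217) in myofiber-associated myoblasts. Psmb9 had log2 differences of -1.62 and -0.21, with a CR of -1.41, and Tap1 of -0.25 and 0.43. In dispersed myoblasts 2 of the 3 were called lower, and in myofiber-associated myoblasts limma called 0 lower, with 1 at an unadjusted p under 0.05.

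The choice of members did not use their promoter sequences. It did use their known induction by type I interferon, which acts mainly through the ISRE. The shares below therefore describe this class of genes and say nothing about these arrays. RefSeq promoters, from 250 bases before to 50 after the start site, were available for 33 of the 44 members. An ISRE (GAAANNGAAA) was found for 18 of the 33 (54.5%), beside 1079 of the 27025 genes of the table (3.99%). A GAS (TTCNNNGAA) was found for 9 (27.3%) beside 9.55% of all genes, and both for 6 (18.2%) beside 0.614%. The motifs can overlap, as in the promoter of Bst2. The 18 genes with an ISRE had a median change of -1.61 in dispersed and -1.38 in myofiber-associated cells, and the 15 without one -1.65 and -0.77. The 18 include Ddx60, Oas3 and Ifit1, which did not pass the filter on low signal, and Ddx60 was at background throughout. These medians are therefore a description. A match is a description of letters in the window, not a site shown to be bound, and Ifi44, the member with the largest change in dispersed myoblasts, had none.

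**Figure D4:**
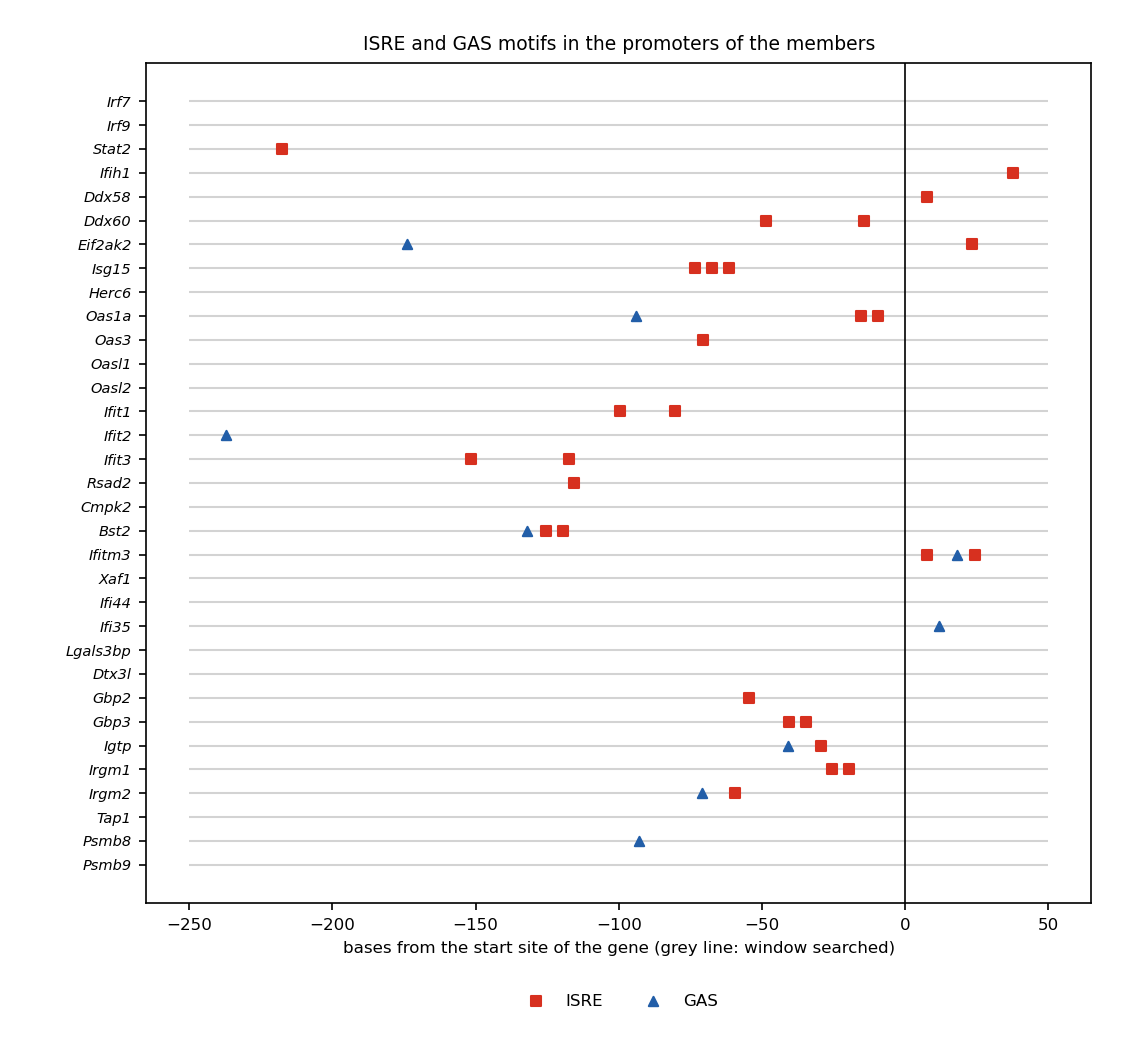
Positions of ISRE (red squares) and GAS matches (blue triangles) in the promoters of 33 members, in bases from the start site, with a grey line for the window searched. ISRE matches are found for 18 of the 33 genes, and most of them lie in the last 150 bases before the start.

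Of the other genes of the interferon pathway that were listed, 148 were on the array and 125 passed the filter. In dispersed myoblasts 41 (32.8%) were called lower and 1 (0.80%) higher at 72 hr, beside 6.35% and 7.37% of all genes, with a median of -0.22. In myofiber-associated myoblasts 14 (11.2%) were called lower and 3 (2.40%) higher, beside 1.75% and 3.74% of all genes, with a median of -0.25. The count of 14 was 2 without myofiber-associated replicate 1 of either time or 72-hr replicate 3, 4 without replicate 2 of either time and 6 without 48-hr replicate 3. That of 3 was 8 without 48-hr replicate 4 and 0 without any 1 of 48-hr replicates 1, 2 and 3 and 72-hr replicates 1, 2 and 3. For the CR 7 (5.60%) were called lower and 2 (1.6%) higher, beside 2.37% and 1.08% of all genes, and leaving out 1 array gave 3 to 18 lower and 0 to 3 higher. Myofiber-associated levels were called lower than dispersed ones for 65 (52.0%) and higher for 11 (8.80%) at 48 hr, beside 27.0% and 16.1% of all genes. At 72 hr they were lower for 53 (42.4%) and higher for 4 (3.20%), beside 15.6% and 11.5%. Without 1 array these 72-hr counts were 34 to 52 lower and 2 to 4 higher. The shares of all genes given here also stand beside the counts by role that follow.

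Of the 15 interferon genes, 8 passed the filter, and limma called 0 of them in either culture, with 0 at an unadjusted p under 0.05. Ifnb1 and Ifng were above background on no array. The alpha interferon genes Ifna1, Ifna2, Ifna5, Ifna11, Ifna12 and Ifna14, with Ifnab and the lambda gene Ifnl3, were above background on all 16 arrays, and their group means lay between 4.55 and 7.79. Their changes in dispersed myoblasts ran from -0.66 for Ifna11 to 0.16 for Ifna12, and in myofiber-associated myoblasts from -0.26 for Ifna11 to 0.35 for Ifna12, the latter through replicate 4 at 72 hr alone. Ifna7, Ifna13 and Ifnk, which did not pass the filter, were above background on some arrays.

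Of the 6 receptor genes, 5 were above background on all 16 arrays. Those of the type I receptor, Ifnar1 and Ifnar2, had log2 differences of -0.17 and -0.32 in dispersed and 0.21 and 0.05 in myofiber-associated myoblasts. The gamma receptor chains Ifngr1 and Ifngr2 had log2 differences of -0.18 and -0.14 in dispersed and of -0.05 and -0.79 in myofiber-associated myoblasts, and Il10rb, shared with the lambda receptor, of -0.07 and 0.51. Ifnlr1, the lambda-specific chain, did not pass the filter. Ifnar2 was the 1 receptor of 5 called lower in dispersed myoblasts; in myofiber-associated myoblasts limma called 0, with 1 lower and 1 higher at an unadjusted p under 0.05.

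Of the kinases and other transcription factors, 3 of 9 were called lower in dispersed myoblasts: Irf8 (-1.13), Stat3 (-0.60) and Irf1 (-0.48), the latter an early activator of antigen presentation genes. In myofiber-associated myoblasts the receptor kinase Jak1 fell, with a log2 difference of -0.55 (SE 0.10, limma, adjusted p = 0.00807). Of 12 sensors and adaptors, the Toll-like receptor adaptor Myd88 was lower (-0.42) and the RIG-I adaptor Mavs higher (0.22) in dispersed myoblasts, and the peptidoglycan sensor Nod1 fell in myofiber-associated myoblasts, with a log2 difference of -0.70 (SE 0.11, limma, adjusted p = 0.00607). Of 12 feedback inhibitors, the RNA editor Adar was lower in dispersed myoblasts (-0.22). In myofiber-associated myoblasts the phosphatase gene Ptpn6 rose by 1.99 (SE 0.35, limma, adjusted p = 0.00807) and the DNase gene Trex1 fell, with a log2 difference of -0.72 (SE 0.11, limma, adjusted p = 0.0047).

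Other antiviral genes induced by interferon were called lower for 22 of 56 in dispersed and 7 of 56 in myofiber-associated myoblasts, where 2 were called higher. Of all genes, 6.35% and 1.75% were called lower in these cultures, and 3.74% higher in the latter. Phf11d had a log2 difference of -2.42 in dispersed myoblasts and fell in myofiber-associated myoblasts, with a log2 difference of -2.52 (SE 0.44, limma, adjusted p = 0.00816). Ifi203, a DNA-binding protein of the PYHIN family, and Ly6a (Sca-1) both had a log2 difference of -2.35 in dispersed myoblasts. Gbp7 and Trim30a, which were above background on no myofiber-associated 72-hr array, were at least 3.33-fold and 1.997-fold higher at 48 hr. On the 4 myofiber-associated 48-hr arrays, Gbp7 was above background on all 4 and Trim30a on 3. Of all genes tested in myofiber-associated myoblasts, 10.4% had all 72-hr arrays below all 48-hr arrays and 15.9% above. Each of the pathway genes with a change there was named because it was called. For each of these, all 4 arrays of 1 time lay beyond all 4 of the other. The same holds for the 2 called higher, chosen for mention after their values were seen: Gbp4, which rose by 1.91 (SE 0.31, limma, adjusted p = 0.00655), and Samhd1, an enzyme that depletes nucleotides, which rose by 0.71 (SE 0.13, limma, adjusted p = 0.00964).

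Of 7 genes that encode chemokines or the death ligand, 2 were called lower in dispersed and 3 in myofiber-associated myoblasts. Cxcl9 read 5.77, 6.47, 6.48 and 6.74 on the dispersed 48-hr arrays and 4.79, 3.97, 4.34 and 3.61 at 72 hr, and 6.50, 5.70, 5.35 and 5.73 on the myofiber-associated 48-hr arrays and 2.76, 3.87, 3.61 and 3.31 at 72 hr. Tnfsf10 read 8.97, 9.18, 9.16 and 9.61 on the dispersed 48-hr arrays and 7.16, 7.39, 7.25 and 7.34 at 72 hr, and 5.94, 5.46, 4.92 and 6.24 on the myofiber-associated 48-hr arrays and 1.93, 2.90, 1.96 and 1.88 at 72 hr. Both were lower on all 72-hr arrays than on the 48-hr arrays of the same culture. Cxcl9, which attracts T cells, had a log2 signal above 5 on the 48-hr arrays only. It passed the filter on low signal through those arrays, so its calls as lower at 72 hr in both cultures are a description. Only 1 of 4 72-hr arrays of each culture was above background, so no size is given. Tnfsf10, which encodes the death ligand TRAIL, had a log2 difference of -1.95 in dispersed myoblasts and was above background on no myofiber-associated 72-hr array, so it was at least 3.92-fold higher at 48 hr. Cxcl10, a chemokine for the same receptor as Cxcl9, fell in myofiber-associated myoblasts, with a log2 difference of -1.36 (SE 0.24, limma, adjusted p = 0.00824). Of 16 other antigen presentation genes, 11 were called lower in dispersed and 1 in myofiber-associated myoblasts, beside 6.35% and 1.75% of all genes. Cd74, the invariant chain, had a log2 difference of -1.52 in dispersed myoblasts, the class I gene H2-T23 of -1.11 and the class II gene H2-Ab1 of -1.10, while Cd74 fell on fibers as well, with a log2 difference of -1.26 (SE 0.23, limma, adjusted p = 0.00964).

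Markers of other cells are given beside the members. For the counts of markers between the times, the shares of all genes were 6.35% lower and 7.37% higher in dispersed myoblasts. In myofiber-associated myoblasts they were 1.75% and 3.74%. Between cultures they were 27.0% lower and 16.1% higher in myofiber-associated myoblasts at 48 hr, and 15.6% and 11.5% at 72 hr. For each list the gene with the brightest probe in a group is named, although probes differ in binding and their levels do not rank genes by abundance. All 20 endothelial markers passed the filter, none was at background throughout, and Egfl7 was the brightest in every group but myofiber-associated 72 hr, where Kdr was. Their summed signal was 207810, 234710, 248580 and 283240 on the dispersed 48-hr arrays and 72639, 88009, 103540 and 91406 at 72 hr. On the myofiber-associated arrays it was 43568, 46838, 30978 and 66867 at 48 hr and 18160, 21160, 16045 and 18541 at 72 hr. The dispersed 48-hr arrays were thus highest and the myofiber-associated 72-hr arrays lowest, the order that the members had at these ends. The Schwann cell sums, given below, had the same ends. The other groups lay apart in the endothelial sums, whereas they overlapped in the members. Between the times 19 of 20 were called lower in dispersed and 12 in myofiber-associated myoblasts, with medians of -1.43 and -2.25. Myofiber-associated levels were called lower for 19 at 48 hr and 18 at 72 hr. The part of these cells in the result was not tested.

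**Figure D5:**
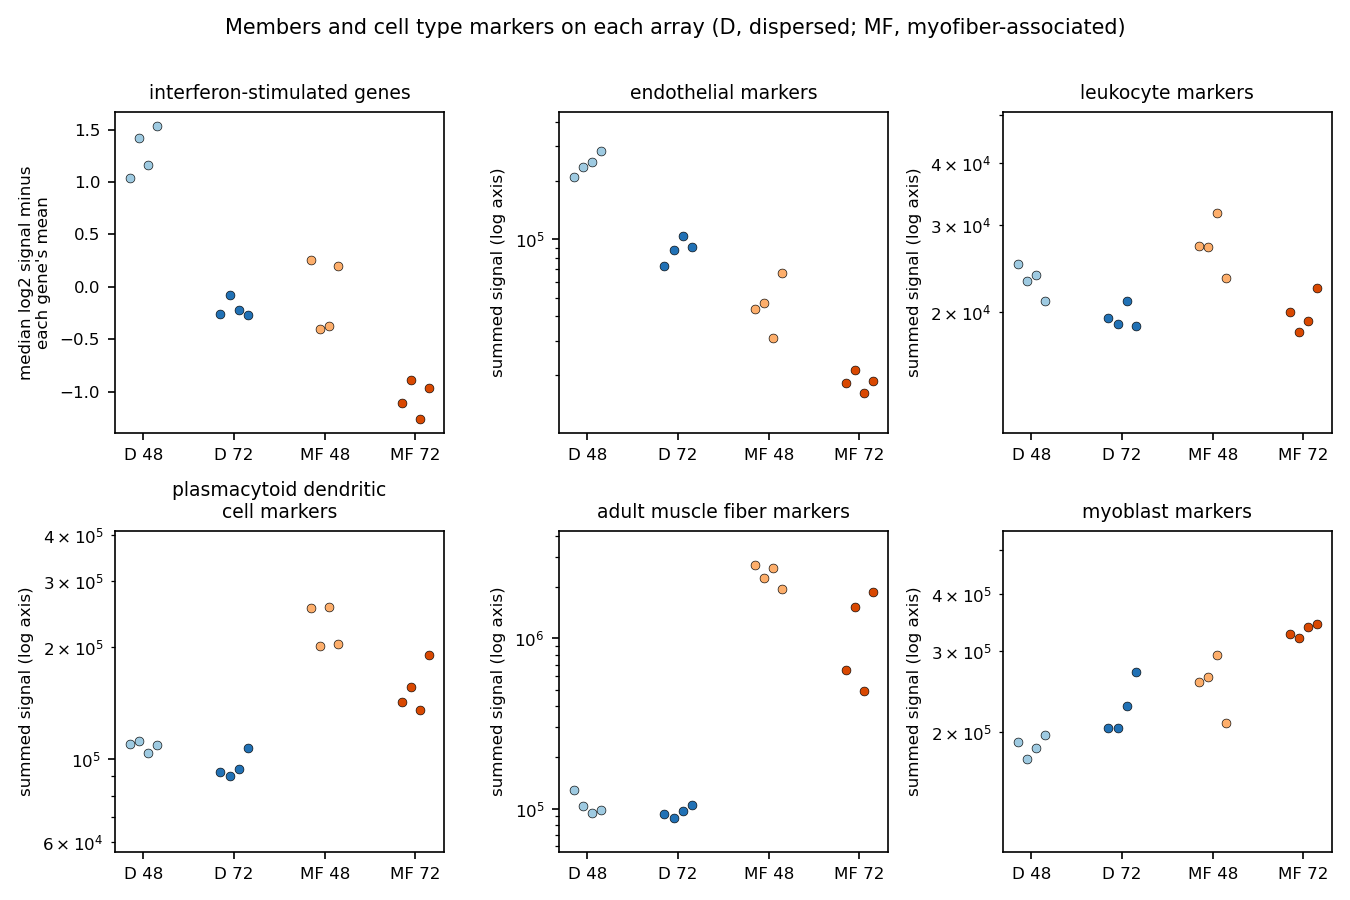
Median log2 signal of the 44 members, each taken from its own mean, and summed signal of marker lists (logarithmic axes, intensity units) on each of the 16 arrays. The endothelial sums are highest on the dispersed 48-hr arrays and lowest on the myofiber-associated 72-hr arrays, as the members are. The Schwann cell sums, which are not drawn, have the same ends. The fiber sums are far higher in myofiber-associated than in dispersed myoblasts.

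Of 20 markers of macrophages and other leukocytes 17 passed the filter, and Spi1 was above background on no array. Itgam was the brightest in every group but myofiber-associated 48 hr, where Cd68 was. The sum was 25039, 23139, 23730 and 21060 in dispersed myoblasts at 48 hr and 19487, 18929, 21105 and 18758 at 72 hr. In myofiber-associated myoblasts it was 27219, 27122, 31703 and 23417 at 48 hr and 20053, 18286, 19260 and 22352 at 72 hr. Between the cultures at 48 hr, the higher myofiber-associated sums rest on Cd68, with a mean of 11.24 in dispersed and 13.38 in myofiber-associated cells, so the sum does not stand for the list. Myofiber-associated levels were called lower for 11 and higher for 1 of the 17 at 48 hr, with a median of -1.33, and lower for 7 and higher for 2 at 72 hr. Between the times 4 were called lower and 1 higher in dispersed myoblasts, and 1 higher in myofiber-associated myoblasts. At an unadjusted p under 0.05, 11 were lower and 1 higher in dispersed myoblasts, and 4 lower and 1 higher in myofiber-associated myoblasts. The medians were -0.67 and -0.24. The part of these cells was not tested.

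Of 7 markers of plasmacytoid dendritic cells, known for their large output of interferon, 5 passed, and Klk1 was above background on no array. Siglech was the brightest in every group but myofiber-associated 48 hr, where Cox6a2 was, and Bst2 of this list is a member. Their sum was 109750, 112300, 104180 and 109180 in dispersed myoblasts at 48 hr and 92355, 90178, 94256 and 106980 at 72 hr. It was 254490, 201680, 255860 and 203500 in myofiber-associated myoblasts at 48 hr and 142250, 156600, 135370 and 189950 at 72 hr. Between the cultures at 48 hr, the higher myofiber-associated sums rest largely on Cox6a2, also known as a muscle subunit of cytochrome c oxidase, with a mean of 10.31 in dispersed and 16.89 in myofiber-associated cells. Myofiber-associated levels were called lower for 2 and higher for 1 of the 5 at 48 hr, and lower for 1 and higher for 1 at 72 hr. Between the times 3 were called lower in dispersed and 0 in myofiber-associated myoblasts with limma, where 2 were lower at an unadjusted p under 0.05. The part of these cells was not tested.

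All 12 markers of adult muscle fibers passed the filter, and Eno3 was the brightest in dispersed and Tnni2 in myofiber-associated myoblasts. Their sum was 129230, 104250, 93659 and 97522 in dispersed myoblasts at 48 hr and 92377, 88462, 96797 and 104950 at 72 hr. It was 2682200, 2261000, 2585000 and 1948800 in myofiber-associated myoblasts at 48 hr and 648520, 1537000, 492310 and 1873200 at 72 hr, far above all dispersed arrays. Myofiber-associated 72-hr replicates 1 and 3, where Irgm2 and Igtp were low, had the lower sums of their group. The 48-hr replicates 1 and 3, where both genes were high, had the higher sums of theirs. Of the 12, 6 were called lower in dispersed and 1 in myofiber-associated myoblasts at 72 hr, and 12 and 11 were called higher in myofiber-associated myoblasts at 48 and 72 hr. At an unadjusted p under 0.05, 9 were lower in dispersed and all 12 in myofiber-associated myoblasts at 72 hr, with medians of -1.36 and -1.87. No share of all genes was taken at that threshold, so nothing is read from these counts. The labels' protocol describes how fibers were spun down and discarded after trypsin, and it says that quality control found the preparations free of fiber RNA. The signals of the fiber markers are given beside that statement, and the part of fiber RNA in the members' values was not tested.

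The 12 myoblast markers all passed, and Chrna1 was the brightest in every group but myofiber-associated 48 hr, where Itga7 was. Their sum was 189830, 174440, 184210 and 196770 in dispersed myoblasts at 48 hr and 203500, 203750, 227250 and 269800 at 72 hr, and 256640, 263990, 294820 and 209420 in myofiber-associated myoblasts at 48 hr and 327800, 320630, 338070 and 343560 at 72 hr. They did not follow the members: 4 were called higher and 1 lower in dispersed, and 4 higher in myofiber-associated myoblasts. Between cultures 2 were called higher and 4 lower in myofiber-associated myoblasts at 48 hr (median -0.35), and 5 higher at 72 hr (median 0.48).

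Of 13 fibroblast markers tested, 2 were called higher and 1 lower in dispersed and 1 higher and 3 lower in myofiber-associated myoblasts. Between cultures 4 were called lower in myofiber-associated than in dispersed myoblasts at 48 hr (median -0.52), and 1 higher and 8 lower at 72 hr (median -1.33). Dcn was the brightest of these in every group but dispersed 72 hr, where Col1a2 was, and the sum was 180230, 192080, 157130 and 137800 in dispersed myoblasts at 48 hr and 173180, 175670, 144700 and 116560 at 72 hr, and 128740, 107030, 134070 and 229320 in myofiber-associated myoblasts at 48 hr and 64525, 75012, 91756 and 91305 at 72 hr. Of 12 pericyte and smooth muscle markers, 2 were called higher and 4 lower in dispersed and 1 higher and 1 lower in myofiber-associated myoblasts. Between cultures 1 was called higher and 7 lower in myofiber-associated myoblasts at 48 hr (median -1.90), and 1 higher and 5 lower at 72 hr (median -0.79). Tagln was the brightest in dispersed and Des, also a myoblast marker, in myofiber-associated myoblasts, and the sum was 88037, 145220, 134980 and 147290 in dispersed myoblasts at 48 hr and 127690, 200490, 219680 and 176390 at 72 hr, and 87045, 74861, 99869 and 62324 in myofiber-associated myoblasts at 48 hr and 45867, 57450, 38967 and 75228 at 72 hr. Of 7 Schwann cell markers tested 4 were called lower in dispersed and 0 in myofiber-associated myoblasts with limma, where 4 were lower at an unadjusted p under 0.05. Between cultures 5 were called lower in myofiber-associated myoblasts at 48 hr (median -2.30) and 4 at 72 hr (median -1.95). Egr2 was the brightest in every group but dispersed 72 hr, where Pmp22 was, Erbb3 was above background on no array, and the sum was 9960, 12172, 10141 and 10750 in dispersed myoblasts at 48 hr and 7467, 8704, 7520 and 7053 at 72 hr, and 6992, 6538, 6192 and 8421 in myofiber-associated myoblasts at 48 hr and 4419, 3713, 4391 and 5205 at 72 hr. The part of these cell types in the members' values was not tested.

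Within each row of the slides, which holds arrays of both times, the medians over all 44 members kept their sign. These medians include the members that did not pass the filter on low signal. In dispersed myoblasts they were -1.55 in row 1 and -1.79 in row 2, and in myofiber-associated myoblasts -0.94 and -1.06. The CR gave -0.54 and -0.71, and the cultures differed by -1.40 and -1.44 at 48 hr and by -0.87 and -0.73 at 72 hr.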

How the data were processed

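The 16 arrays were read with Agilent Feature Extraction 11.0.1.1. The intensity values used were the processed green signals, in intensity units, which per the file headers were background-subtracted and corrected for spatial trend before the authors deposited them. The authors also deposited a table of log2 ratios in which every 72-hr array is set against its culture's average 48-hr array. Their column medians were 0.06, 0.04, 0.07 and 0.01 for myofiber-associated and 0.03, 0.02, 0.01 and 0.00 for dispersed myoblasts, and whether they were centered after the background correction, loess and quantile steps that the paper names stays unknown, so they served as an alternative only.

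Control spots and outlier spots were left out. The log2 signals of each array were fitted by loess (span 0.3, 4 iterations) to its culture's average 48-hr array and quantile-normalized over 16 arrays. Identical probes were averaged, and the brightest probe stood for a gene. The slides named 1849 of 59305 gene spots differently; the names of the myofiber-associated slide were used, and no member was affected. Genes with a median log2 signal of at least 5 were tested with limma 3.58.1 in R 4.3.3 (package data.table, version 1.17.8), with Benjamini-Hochberg adjustment over all genes tested. The steps were tested on simulated data. A fold "at least" compares the mean of the brighter group with the lowest signal well above background on each array of the dimmer group. Figures were drawn with matplotlib 3.10.9 and numpy 2.4.6, and promoters were searched with pandas 2.3.3, all under Python 3.11.15.

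The members and lists were chosen with earlier results of these data known. Members named with values by array were those with the largest change of their role in either culture and those called in myofiber-associated myoblasts. Other pathway genes were named if among the 3 largest changes called in their role, if they encode a receptor, or if they encode an interferon above background. Other genes named with values were chosen after their values were seen. Alternatives were other background corrections, scalings, probe choices, filters, blocks, thresholds, the deposited ratios and fits that left out 1 array.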

Additional observations from a re-analysis of the deposited data

Results flagged for a closer look

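Of 84 sets of 4 arrays examined, 2 held an array apart from the other 3, a difference that chance gives in about 1 of 20 sets. Ifih1 read 8.34 on dispersed 72-hr replicate 2, against 8.18 to 8.20 on the others, a small gap that does not alter its order of groups. Mx2 read 7.70 on myofiber-associated 72-hr replicate 3, against 3.96 to 4.06 on the others, and this array sets the small change of Mx2 in that culture. The 84 sets left out some genes printed by array. Among those, Cmpk2 read 7.94 on dispersed 48-hr replicate 4, against 7.31 to 7.35 on the others. On myofiber-associated 72-hr arrays Cmpk2 read 5.21 on replicate 1, against 4.69 to 4.76, and Tnfsf10 read 2.90 on replicate 2, against 1.88 to 1.96.

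For 7 of the genes named the comparative ratio was called. For the members among them it contains the dispersed change that chose them, so these values are a description. It was -2.46 for Irf7, -2.33 for Cmpk2, -2.90 for Rtp4 and -1.41 for Psmb9, which were much lower at 72 hr in dispersed myoblasts and were not called in myofiber-associated myoblasts. It was -1.93 for Ptpn6, which rose in myofiber-associated myoblasts only, 0.59 for Trex1, which fell there only, and -1.63 for Ly6a, which was lower in dispersed myoblasts. Culture and slide cannot be told apart in these values.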

How the results depend on the processing

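No median of the members changed sign under an alternative, and the cause of each shift was not tested unless stated. Single members above background did change sign. In myofiber-associated myoblasts Mx2 (-0.20) became 0.09 and Eif2ak2 (0.03) went just below 0 under normexp background correction, and Cmpk2 (-0.03) became 0.07 with scaling to the 75th percentile. Between cultures at 72 hr that scaling moved Zbp1 from -0.08 to 0.11 and Cmpk2 from -0.26 to 0.05. Iigp1 differed in sign between its probes in myofiber-associated myoblasts, where the dimmer probe lay near background at 72 hr. In dispersed myoblasts the members' median of -1.73 became -1.49 under normexp background correction, and the count of 33 stayed between 28 and 38. Of the other pathway genes, 1 was called higher there, 2 with scaling to the 75th percentile and 0 to 2 when 1 array was left out. The 9 members called lower in myofiber-associated myoblasts became 1 without the filter on low signal, 1 with slide row as a block, 26 in one fit of all 16 arrays, 25 at an adjusted p under 0.05 and 24 in the authors' table of log2 ratios, which leaves out the spread of the 48-hr arrays. Leaving out 1 array gave 0 to 11 members. The members' median there became -0.74 under normexp, where Usp18 (-0.98), Ifi27l2a (-1.27), Gbp3 (-1.33), Gbp2 (-1.21) and Oas1a (-1.77) were also smaller, while Ifih1 became -1.03 with the mean of all its probes. Leaving out 1 array gave 2 to 15 pathway genes lower (14 with all arrays) and 0 to 8 higher (3 with all arrays). The largest counts without 1 array came without 48-hr replicate 4, which pooled 2 preparations. For the comparative ratio the 4 members became 9 under normexp, 2 with the mean of all probes of a gene, 11 at an adjusted p under 0.05 and 18 in the authors' table, and 3 to 7 without 1 array. Pathway genes called lower for it numbered 3 to 18 (7 with all arrays) and higher 0 to 3 (2 with all arrays) without 1 array. Between cultures at 72 hr, scaling to the 75th percentile called 1 member higher, where the fit used called 0. Leaving out 1 array there gave 34 to 52 pathway genes lower (53 with all arrays) and 2 to 4 higher (4 with all arrays). No paired analysis was possible because the replicate numbers in the labels do not link mice or preparations of one group to those of another.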
